A study of Mus musculus with 90 samples.

Results

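The genes described here are 44 cell cycle and proliferation genes, found by their Entrez gene in the expression matrix, which lists 20414 genes. They were chosen from textbook knowledge of DNA replication and mitosis, but with earlier results of these data known. All 44 were present, each in a single line of the matrix. They comprise 15 genes of DNA replication, 3 transcription factors of the cycle and 26 genes of mitosis. Expression had been measured by RNA sequencing in 15 tissues of wild-type female C57BL/6 mice (C57BL/6J in the study's methods), 10 weeks old by the labels, while the methods give a younger age, in estrus or in diestrus as read from stained vaginal smears. Each tissue and phase had 3 libraries, 90 in all, and no animal carried a transgene or received a drug. The values are FPKM, fragments scaled to transcript length and to the total mapped in the library, so levels of different genes can be set side by side per length. Per the study's methods the tissues were taken from the same mice, 3 in each phase, but the labels do not link libraries to mice. The 3 libraries of a group were taken as separate samples, and the comparisons between tissues treated libraries of different tissues as independent, so every p-value below measures only the spread between libraries.

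A dividing cell first copies its DNA in S phase and then separates the copies in mitosis. At each origin the MCM helicase is loaded in G1 and fired in S phase, factors of the E2F family switch on the replication genes, and later FOXM1 and B-MYB act with the MuvB complex on the mitotic genes. Quiescent and terminally differentiated cells keep both sets low, so the transcripts are widely used as a readout of dividing cells in tissues that renew throughout life, such as intestinal crypts, gastric glands, spleen and the growing follicle, and in the endometrium, where proliferation follows the ovarian hormones.

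Promoters of the members are shown because the replication and mitotic genes hold different short sequences there. RefSeq promoters of GRCm38.p6, running from 250 bases before to 50 bases after the start of transcription, were at hand for 37 of the 44 members. Tpx2, Mcm4, Foxm1, Kif20a, Aurkb, Ccna2 and Gins2 had none. Both strands were searched for the letters of the cell cycle genes homology region (CHR, TTTGAA or TTCGAA), for the CCAAT box (CCAAT) and for an E2F site (TTTGGCGC, TTTCCCGC, TTTCGCGC or TTTGCCGC). In the sequences below, the 250 bases before the start are given 5′ to 3′ on the gene's strand, and capitals mark these letters on either strand.
Cdk1 (chr10:69352913-69353162, minus strand): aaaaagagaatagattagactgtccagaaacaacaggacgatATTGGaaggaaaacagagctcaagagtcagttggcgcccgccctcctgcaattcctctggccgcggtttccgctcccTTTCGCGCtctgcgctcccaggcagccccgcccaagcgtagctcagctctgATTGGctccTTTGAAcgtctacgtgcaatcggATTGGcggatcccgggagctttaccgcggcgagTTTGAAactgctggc
Mki67 (chr7:135716380-135716629, minus strand): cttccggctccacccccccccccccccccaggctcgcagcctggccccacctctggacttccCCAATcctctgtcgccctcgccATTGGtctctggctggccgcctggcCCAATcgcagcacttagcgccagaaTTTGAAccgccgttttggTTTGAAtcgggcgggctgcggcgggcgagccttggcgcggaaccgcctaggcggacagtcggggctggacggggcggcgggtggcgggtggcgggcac
Ccnb2 (chr9:70421555-70421804, minus strand): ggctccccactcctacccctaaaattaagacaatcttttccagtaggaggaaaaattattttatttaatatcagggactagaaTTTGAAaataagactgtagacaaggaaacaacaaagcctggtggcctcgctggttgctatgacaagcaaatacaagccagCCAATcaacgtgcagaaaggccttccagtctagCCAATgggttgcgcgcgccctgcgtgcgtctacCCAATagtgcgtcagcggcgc
Mcm6 (chr1:128359706-128359955, minus strand): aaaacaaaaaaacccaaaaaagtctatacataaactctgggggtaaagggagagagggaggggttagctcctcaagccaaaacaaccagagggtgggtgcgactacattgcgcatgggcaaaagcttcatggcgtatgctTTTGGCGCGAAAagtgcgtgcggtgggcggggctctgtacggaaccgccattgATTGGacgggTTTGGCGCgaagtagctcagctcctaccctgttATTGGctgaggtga
Mcm5 (chr8:75109259-75109508, plus strand): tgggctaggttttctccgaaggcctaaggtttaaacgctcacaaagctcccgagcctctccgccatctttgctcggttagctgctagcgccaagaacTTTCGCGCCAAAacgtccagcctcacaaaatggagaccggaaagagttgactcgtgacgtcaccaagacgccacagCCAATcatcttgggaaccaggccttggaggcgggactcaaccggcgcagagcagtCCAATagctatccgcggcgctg

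Cdk1, the kinase that drives entry into mitosis, held CHR letters at positions -71 and -15 from the start and CCAAT letters at -208, -80 and -48, with E2F letters at -131. In Ccnb2, a B-type cyclin that binds it, CCAAT letters stood at -87, -54 and -21. Mki67 encodes the Ki-67 antigen used in histology to count dividing cells, and its promoter held CHR letters at -116 and -98. In Mcm6 and Mcm5, subunits of the replicative helicase, 2 E2F matches overlapped in a single capital run, starting at -110 and -106 in Mcm6 and at -153 and -149 in Mcm5. CHR letters were in 16 of 22 mitotic promoters (72.7%), in 3 of 13 replication promoters (23.1%) and in 2623 of 15969 promoters of all listed genes (16.4%). CHR and CCAAT letters occurred together in 15 of the 22 mitotic promoters (68.2%), against 6.91% of all promoters. E2F letters showed the opposite split, with 6 of 13 replication promoters (46.2%: Mcm3, Mcm5, Mcm6, Mcm7, Cdc6 and Hells), 1 of 22 mitotic promoters (4.55%, Cdk1) and 3.14% of all. CCAAT letters were in 76.9% of the replication and 77.3% of the mitotic promoters, against 38.8% of all. These counts describe letters in a fixed window and are no evidence of binding.

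Several libraries stood apart before any phase was compared. Steps between low values placed the depth of 89 libraries at roughly 9.158 to 17.71 M reads (median 15.92), with 48.1% to 72.3% of these values whole within 0.1 of a read, and that of brown fat estrus 3 at 0.0789 M, where 37 members were listed at 0. The uterus (womb in the labels) library estrus 3 carried markers of squamous epithelium, a lining that the uterine body lacks, at a summed 814 FPKM, against 0.31 to 32.9 in the other 5. Ovary estrus 3 carried epithelial markers (Krt8, Krt18, Krt19, Epcam and Cdh1) at 378 FPKM, against 32.1 to 48.5 in the other 5, and Ltf, a gene of estrogen-exposed uterine epithelium and of neutrophils, at 172 FPKM, against 1.06 to 2.73. Duodenum estrus 1 carried gastric gland markers at 30358 FPKM, nearly all Tff1 (29618 FPKM), against 0.94 to 22.2, together with B cell markers at 475 FPKM, against 23.0 to 92.3. Results in these tissues are given with and without the library that decides them.

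On the deposited scale the members separated the tissues into 5 with high and 10 with low levels. The library level, taken as the median FPKM over the 44 genes, had its tissue median at 16.3 in spleen (lowest to highest library 14.2 to 18.6), 15.9 in ovary (11.8 to 21.4), 10.7 in stomach (9.32 to 11.9), 10.4 in duodenum (2.10 to 14.9) and 5.73 in uterus (1.76 to 31.8). Vein followed at 1.18 (0.755 to 1.70), then aorta at 0.908, kidney and white fat at 0.853, hypothalamus at 0.703, cerebrum at 0.665, heart at 0.583, brown fat at 0.478, liver at 0.343 and skeletal muscle at 0.275. Of neighbours in this order, only uterus and vein did not overlap in their libraries. Aorta diestrus 3, at 2.195, lay above the lowest library of uterus and of duodenum. That library also carried neutrophil markers at a summed 104 FPKM, against 1.38 to 7.47 in the other 5. Its epithelial markers (Krt8, Krt18, Krt19, Epcam and Cdh1) summed to 83.4, against 6.29 to 14.8. Their part in its level was not tested. In 43 of the 44 genes the mean in each of the 5 high tissues was above the mean in each of the other 10, a pattern shown by 772 of the 15226 genes averaging 1 FPKM or more (5.07%). The gene left out was E2f1. In bulk tissue, fewer cells of a type and less RNA per cell cannot be told apart.

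**Figure D1:**
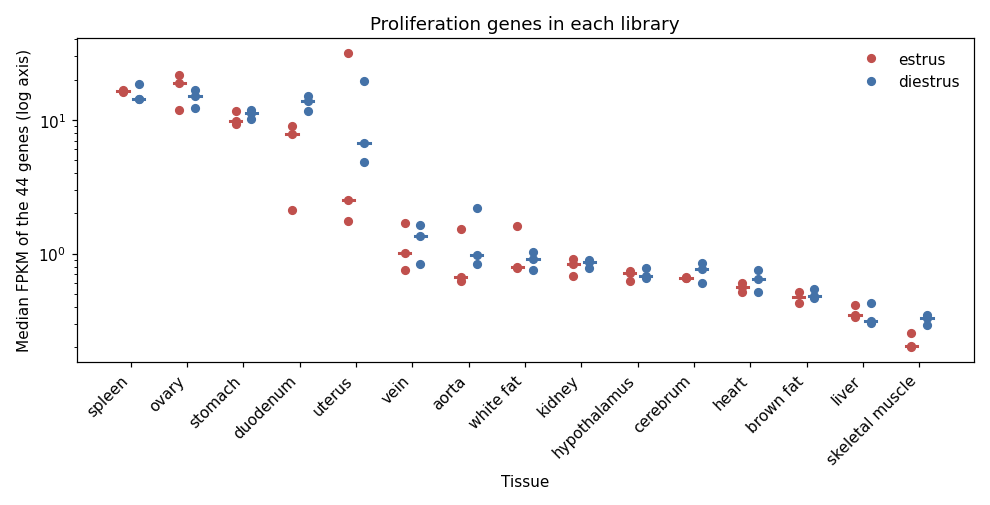
Median FPKM of the 44 genes (log axis) in each library, by tissue, with estrus in red and diestrus in blue; each point is a library and each bar the median of a phase. The tissue medians of spleen, ovary, stomach, duodenum and uterus lie above those of the other 10, although the highest aorta library (2.195) lies above the lowest of uterus and of duodenum, and the uterus spans 1.76 to 31.8; brown fat estrus 3, at 0, is not drawn.

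Among the helicase genes, Mcm2 to Mcm7 build the ring that unwinds DNA, Cdc6 helps to load it, and Cdc45 and Gins2 belong to the active helicase. Mcm7 had the highest means of this group, 47.1 FPKM in spleen, 40.9 in ovary and 34.3 in uterus, and also the highest floor, 3.96 FPKM in skeletal muscle. Mcm5 ran from 28.5 FPKM in spleen to 0.412 in muscle, and Cdc6 from 8.17 in spleen to 0.108 in liver. Mcm2 to Mcm6 and Cdc6 had their second highest mean in uterus, although the uterine libraries spread widely.

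Of the genes of DNA synthesis, Pcna, the sliding clamp of the polymerases, was the most abundant member in every tissue but duodenum and stomach, where Ube2c was. Its mean was 142 ± 13.6 FPKM in spleen and 15.5 ± 1.57 in skeletal muscle (SD, n = 6), a ratio of 9.16. Tyms, which makes thymidylate, had the narrowest range of all 44, from 4.38 FPKM in muscle to 32.6 in uterus (ratio 7.44), with 12.4 ± 1.22 FPKM in the hypothalamus, a tissue of mostly non-dividing neurons. Rrm1 and Rrm2 are the large and small subunits of ribonucleotide reductase, and they differed in the low tissues. Rrm1 was at 9.67 ± 0.581 FPKM in skeletal muscle, the highest of the 10 low tissues, with 8.79 to 10.2 over its 6 libraries. Rrm2 was at 2.44 FPKM or less in all 10 and at 0.387 in brown fat. Uhrf1 and Hells, which keep DNA methylation through replication, had their highest means in uterus, at 28.9 and 13.5 FPKM. The uterine libraries spread widely here too. The median of the genes of DNA synthesis was 50.9 FPKM in uterus estrus 2 and 42.2 in diestrus 1. In the other uterine libraries it was 4.14 to 11.9.

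E2f1, the transcription factor that starts the replication programme, followed the other members least, with a Pearson's r of 0.778 over the 15 tissue means. It was at 4.92 ± 0.790 FPKM in cerebrum, with libraries between 4.32 and 6.39, and at 4.07 ± 1.03 in white fat, above its means in stomach (2.93) and duodenum (3.58). Foxm1 was highest in ovary at 12.3 FPKM and did not exceed 1.05 in the 10 low tissues. Mybl2, which encodes B-MYB, had 1 aorta library at 9.84 FPKM (estrus 1), while the other 5 were at 0.94 to 2.19. That library also had luteal markers at a summed 260 FPKM, against 6.71 to 11.5 in the other 5, granulosa cell markers at 143, against 4.6 to 8.06, and stromal and smooth muscle markers at 12037, against 1566 to 2247. Their part in this level was not tested.

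The steepest gradients were those of mitotic genes. Mki67 ran from 48.2 ± 7.16 FPKM in spleen to 0.115 ± 0.0367 in hypothalamus (SD, n = 6), a ratio of 419 and the largest of the 44. Bub1, a spindle checkpoint kinase, had a ratio of 265, Cenpe, a kinetochore motor, 254, Cdk1 252, Ccnb1 234 and Top2a, the topoisomerase that untangles sister chromatids, 217. Cdk1 was at 0.0633 FPKM in cerebrum and at 15.99 in ovary. The lowest means of Bub1 (0.0233 in skeletal muscle) and Cenpe (0.0267 in brown fat, with its nearly empty library) were also near the floor. These ratios and their order are therefore imprecise.

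Members differed in which tissue had their highest mean on the deposited scale. Spleen was highest for 24 members, ovary for 14, uterus for 4 (Gins2, Tyms, Hells and Uhrf1) and stomach for 2. The uterine means came from libraries that spread widely. The order of ovary and the gut tissues depended on the scale. After scaling by median of ratios, the members higher in ovary than in stomach went from 40 to 15. Those higher in ovary than in duodenum went from 42 to 24. The 14 that peaked in ovary were Foxm1 and 13 mitotic genes, among them Cdk1, Ccnb1, Ccnb2, Aurka, Aurkb, Ttk and Bub1. The pair that peaked in stomach was Plk1, a mitotic kinase (32.9 FPKM, then duodenum at 19.6), and Melk (8.39, then uterus at 8.16). Birc5, which encodes survivin of the chromosomal passenger complex, and Ube2c, the E2 enzyme of the anaphase-promoting complex, were second highest in duodenum, at 39.4 and 90.9 FPKM. Skeletal muscle was lowest for 24 members and liver for 9. Of the 10 low tissues, different ones had the highest mean for different genes. Cenpf was highest in heart, Kif23 in kidney, Nuf2 in hypothalamus and Aurka in skeletal muscle. Cenpf was at 1.49 ± 0.883 FPKM in heart, Kif23 at 2.09 ± 0.734 in kidney, Nuf2 at 2.15 ± 0.440 in hypothalamus, and Aurka at 3.05 ± 0.351 in skeletal muscle.

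**Figure D2:**
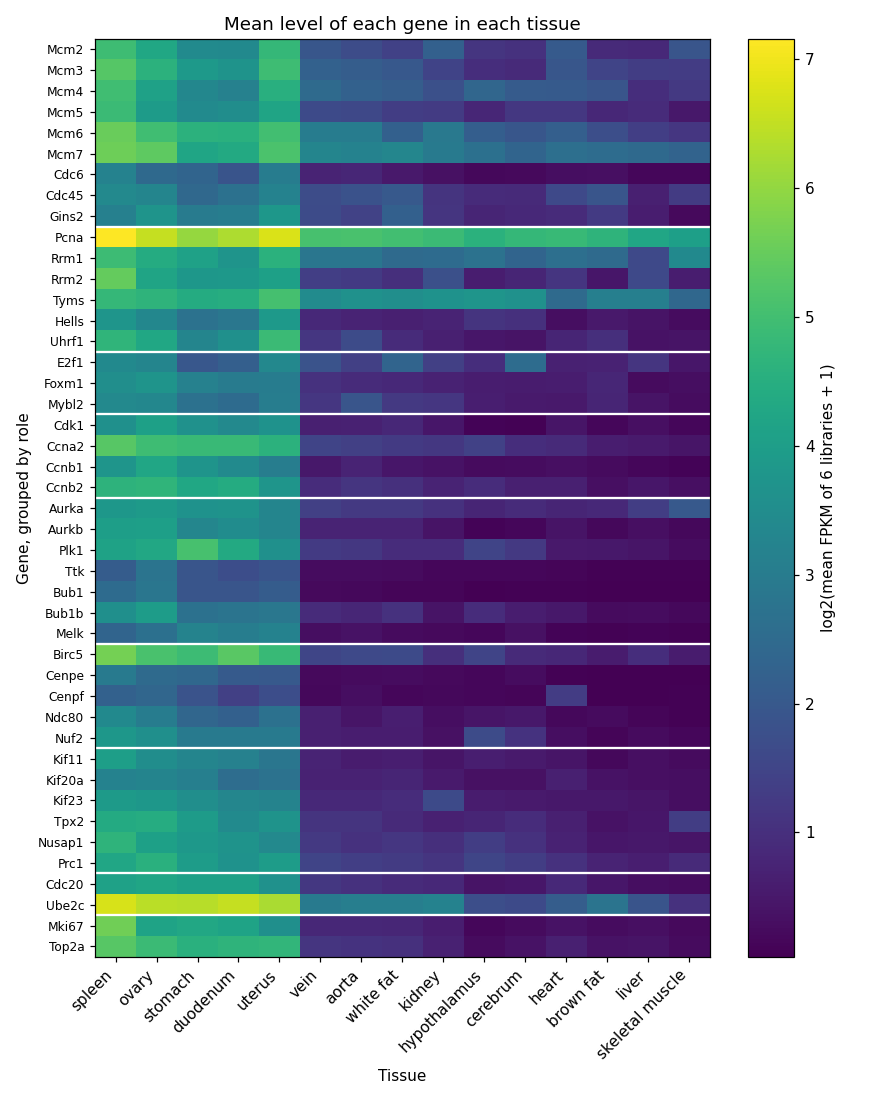
Mean level of each of the 44 genes (lines, grouped by role with white lines between roles) in each of 15 tissues (columns, in order of their median level), as log2(mean FPKM of 6 libraries + 1). The 5 columns at the left are bright for nearly all genes, and Pcna, Ube2c, Tyms and Mcm7 keep visible levels in the other 10.

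Replication and mitotic genes stood in different proportion in different tissues. The ratio of the median FPKM of the 15 replication genes to that of the 26 mitotic genes had a median over libraries of 0.940 in stomach (0.655 to 1.06), 1.17 in ovary (1.01 to 1.55), 1.204 in duodenum (0.858 to 1.88), 1.99 in spleen (1.84 to 2.16) and 2.29 in uterus (1.26 to 3.21). The 6 spleen libraries all lay above the 6 of ovary and the 6 of stomach. In the 10 low tissues the ratio was between 2.70 in hypothalamus and 7.57 in muscle, with mitotic medians at or under 0.655 FPKM.

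**Figure D3:**
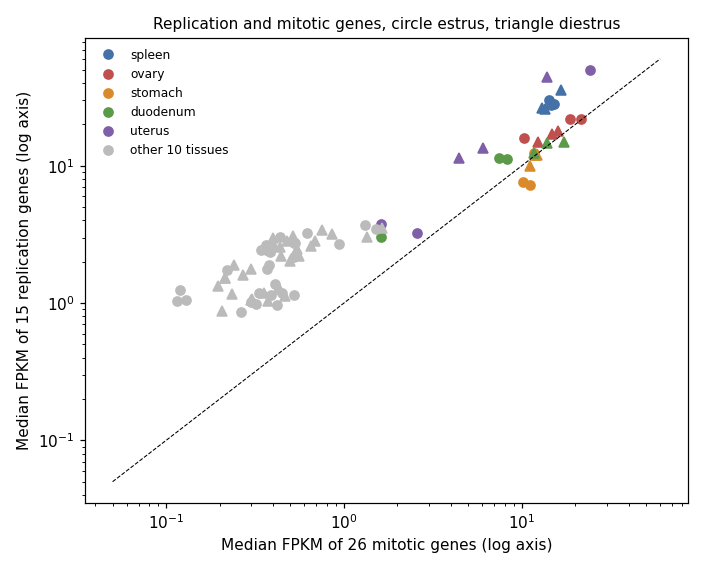
Median FPKM of 15 replication genes against the median FPKM of 26 mitotic genes in each library (log axes), with estrus as circles and diestrus as triangles; the dashed line marks equal medians. Stomach, ovary and duodenum lie near the line, spleen and uterus lie above it, and the other 10 tissues (grey) lie low and farther above it; brown fat estrus 3 is not drawn.

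Other genes with the same profile were sought among 15182 non-members averaging 1 FPKM or more, by Pearson's r over the 15 tissue means with the mean of the members. The 10 most alike were Dbf4, which activates the CDC7 kinase at origins (r = 0.996), Dlgap5, Sgo1, Cdca8, Ckap2l, Knstrn, Kifc1, Shcbp1, Cdca2 and Gtse1 (r = 0.993), and 89 genes had an r of at least 0.95. Dbf4 was at 15.2 FPKM in spleen, 12.5 in ovary and 0.613 in liver. The points share libraries and depth, so these r values are a description.

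Levels were next compared between the 5 high tissues with limma on log2(FPKM + 1), with phase as a covariate and 12 libraries for each pair. A gene was called at an absolute log2 difference of at least 1 and a Benjamini-Hochberg adjusted p of at most 0.05 over all genes tested. The scale matters here, because the deposited values of all genes were shifted between some tissues. The median log2 difference over all genes was 0.15 for ovary minus uterus, 0.22 for ovary minus spleen, 0.64 for ovary minus duodenum, 0.58 for ovary minus stomach, 0.52 for spleen minus duodenum, 0.49 for uterus minus duodenum, 0.45 for uterus minus stomach and 0.38 for spleen minus stomach, and between -0.04 and 0.01 for all of these after scaling by median of ratios. Each count below is therefore given on the deposited scale and after that scaling.

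Mcm2, Mcm3, Mcm4 and Rrm2 were called higher in spleen than in both gut tissues on either scale. Of the 44 members, 17 (38.6%) were called higher in spleen than in duodenum, against 30.7% of all genes. After scaling 5 were called, a smaller share than the 15.4% of all genes. In spleen over stomach 12 members (27.3%) were called, near the 26.8% of all genes. After scaling 6 were called, a smaller share than the 16.1% of all genes. The median member difference was 0.91 and 0.72, and 0.38 and 0.30 after scaling. The largest differences were in Mcm4, with 30.2 FPKM in spleen, 8.05 in duodenum and 9.11 in stomach. Its log2 difference was 1.87 ± 0.22 (SE) against duodenum and 1.65 ± 0.12 against stomach, and 1.31 and 1.22 after scaling. Rrm2 followed, with 43.1 FPKM in spleen, 13.2 in duodenum and 13.0 in stomach, and then Mcm3 and Mcm2. Plk1 and Melk, mitotic kinases, went the other way against stomach, by -0.94 ± 0.11 and -0.87 ± 0.12, and reached the limit after scaling, at -1.39 and -1.27 (all genes 23.4%).

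Ovary exceeded uterus in 4 mitotic members (9.09%), Ttk, Bub1b, Ccnb2 and Ccnb1, near the 10.4% of all genes, of which 2 were called after scaling (all genes 8.35%). Ccnb1, the B-type cyclin of mitotic entry, had 18.0 FPKM in ovary and 7.29 in uterus (log2 difference 1.66 ± 0.51, adjusted p = 0.0221 by limma). The count was 1 without ovary estrus 2 (all genes 9.97%), 7 without uterus diestrus 1 (all genes 10.3%) and 26 without uterus estrus 2, the library with the highest members (all genes 11%). Against spleen, ovary was lower in Mki67 (17.0 against 48.2 FPKM, log2 difference -1.48 ± 0.12) and Rrm2 (17.2 against 43.1, -1.27 ± 0.17), the 2 members called (all genes 13.7%), and 4 were called after scaling (all genes 16.5%). Against the gut tissues the calls turned on the scale. Ovary was called higher in 11 members than duodenum (all genes 34.5%) and in 3 than stomach (Mcm7, Bub1b and E2f1, all genes 29.5%), but in 0 after scaling for either pair (all genes 18.7% and 14.2%), while 2 members, Plk1 and Melk, were then lower in ovary than in stomach (all genes 18%).

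Uterus was called lower than spleen in 10 members (all genes 13.8%) and in 16 after scaling (all genes 14.7%), with Mki67 at 11.03 against 48.2 FPKM (log2 difference -2.47 ± 0.47, adjusted p = 0.000681 by limma), Rrm2 at -2.31 ± 0.71 and Nusap1, a spindle protein, at -1.70 ± 0.46. Against stomach 1 member was called lower in uterus, Plk1 at 11.3 against 32.9 FPKM (all genes 8.94%), and 10 after scaling (all genes 13.6%). No member was called between uterus and duodenum (0 by limma, lowest adjusted p = 0.135, all genes 38.9%), and 3 were lower in uterus after scaling (all genes 19.3%). None was called between duodenum and stomach (0 by limma on both scales, all genes 24.1%), where Cenpf, Plk1 and Kif20a were lower in duodenum at an adjusted p of at most 0.05 but by less than 1 on the log2 scale. For uterus and spleen the count of 10 became 37 without uterus estrus 2 (all genes 14.8%) and 19 without uterus diestrus 1 (all genes 14.1%), and was between 5 and 7 without any other single library (all genes 13.5% to 14.2%).

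Whether the phases differ within a tissue was tested with limma on the 6 libraries of each tissue. Of 391 member tests over the 15 tissues 0 were called, as against 2 of 185470 over all genes (0.00108%). The lowest adjusted p of a member was 0.107, and 38 of the 391 (9.72%) had an unadjusted p under 0.05, against 7.84% of the tests over all genes, with 27 of the 38 in duodenum. The member differences had medians of -1.09 in duodenum, -0.52 in uterus, -0.18 in stomach, 0.04 in spleen and 0.15 in ovary on the log2(FPKM + 1) scale, estrus minus diestrus. The medians over all genes tested were -0.16, -0.07, -0.02, -0.01 and 0.01 in the same order. Over the other 10 tissues the median of the members that passed the filter of 1 FPKM lay between -0.43 in brown fat, where estrus 3 is nearly empty, and 0.12 in white fat. When the 90 libraries were fitted together with the same spread for all tissues, 25 members were called lower in estrus in duodenum (all genes 2.32%) and 3 in uterus (all genes 2.46%). The spread differed between tissues, so these calls are not read as phase differences. In the separate fits the SE of Mki67 was 0.86 in uterus, 0.50 in duodenum and 0.10 in spleen.

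**Figure D4:**
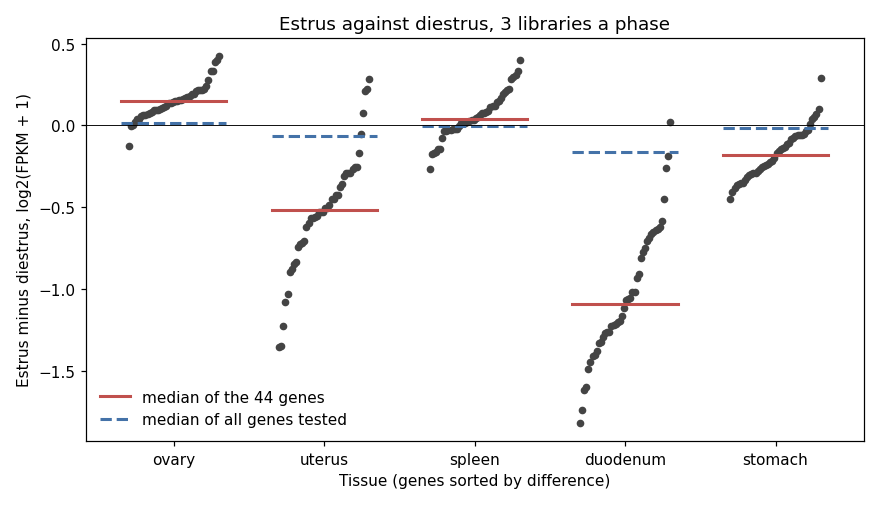
Difference between estrus and diestrus on the log2(FPKM + 1) scale for each of the 44 genes (points, sorted within a tissue), from 3 libraries per phase. The red line is the median of the 44 genes and the dashed blue line the median of all genes tested; the red lines stand at -1.09 in duodenum, -0.52 in uterus, -0.18 in stomach, 0.04 in spleen and 0.15 in ovary.

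In the duodenum 43 of 44 members had a lower mean in estrus, where 32.8% of all genes had a higher one. Ccnb1 was at 5.66, 1.00 and 8.58 FPKM in the 3 estrus libraries and at 18.2, 13.9 and 11.4 in diestrus. Top2a was at 16.6, 5.12 and 21.4 FPKM in estrus, against 40.7, 35.3 and 28.7 in diestrus. Mki67 was at 17.4, 3.80 and 14.2 FPKM in estrus, against 26.4, 20.8 and 19.2 in diestrus. In all 3 genes every estrus library was under every diestrus library, and estrus 2 was the lowest. Mcm2 was at 10.7, 2.31 and 9.50 FPKM in estrus, against 12.3, 12.2 and 10.7 in diestrus, and its phases overlapped, since estrus 1 was above diestrus 3. Pcna was at 70.8, 38.9 and 74.9 FPKM in estrus, against 91.7, 102.5 and 83.9 in diestrus, without overlap.

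The lowest p-values in duodenum were those of Melk, a mitotic kinase, Ttk, the checkpoint kinase MPS1, and Prc1, which bundles the midzone microtubules of the spindle. Melk was at 3.88, 1.08 and 5.12 FPKM in estrus, against 13.8, 10.5 and 9.63 in diestrus, a log2 difference of -1.62 ± 0.41 (SE, limma adjusted p = 0.368). Ttk differed by -0.91 ± 0.24 and Prc1 by -1.26 ± 0.38, with the same adjusted p of 0.368. Of the fixed genes Ccnb1 differed by -1.60 ± 0.56, Top2a by -1.41 ± 0.47, Mki67 by -1.06 ± 0.50, Mcm2 by -0.78 ± 0.48 and Pcna by -0.64 ± 0.27, with adjusted p between 0.368 and 0.458 in limma. None passed the limit.

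By count, 35 of the 44 members had every estrus value under every diestrus value in duodenum, as against 22.1% of all genes tested, and 27 were lower at an unadjusted p under 0.05 in limma, as against 11.2% of all genes. The mitotic members made up most of both counts, with 23 and 22 of 26, while of the 15 replication members 11 and 4 did so. The median difference was -1.26 over the mitotic and -0.70 over the replication members. Tyms was the member with a higher mean in estrus (log2 difference 0.02), and Cdc6, Mybl2 and E2f1 lay between -0.19 and -0.45. Without estrus 1, the library with gastric markers, 42 members were lower in estrus without overlap (all genes 47.3%). Without estrus 2, the library with the lowest members, 35 were lower without overlap (all genes 24.6%) and the median difference was -0.64. The count at an unadjusted p under 0.05 was 3 without diestrus 1 (all genes 2.31%), 9 without diestrus 2 (all genes 4.83%) and 16 without diestrus 3 (all genes 5.21%). After median-of-ratios scaling the median difference of the members was -0.95 and that of all genes -0.01.

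Markers of intestinal crypt base cells went in the same direction between phases as the members in duodenum. The summed level of Lgr5, Olfm4, Ascl2 and Smoc2 was 38.3, 10.1 and 136 FPKM in the estrus libraries and 381, 208 and 240 in diestrus, and Olfm4, a marker of crypt stem cells, alone was at 22.1, 4.28 and 112 against 339, 175 and 209. Villus enterocyte markers (Fabp1, Apoa4, Sis, Alpi and Lct) summed to 3561, 13438 and 13204 FPKM in estrus against 6631, 7673 and 8619 in diestrus. Paneth cell markers, which mark the crypt bottom, ranged from 144 to 1864 FPKM in estrus and from 482 to 5049 in diestrus. The part of the sampled mix of crypt and villus in the differences was not tested.

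In the uterus the 2 highest libraries belonged to different phases, estrus 2 and diestrus 1. Mki67 was at 3.08, 31.0 and 2.81 FPKM in the estrus libraries and at 15.95, 4.49 and 8.85 in diestrus. Top2a was at 3.25, 68.0 and 2.06 FPKM in estrus, against 41.9, 11.1 and 27.6 in diestrus. Ccnb1 was at 1.62, 20.9 and 1.06 FPKM in estrus, against 11.8, 3.71 and 4.62 in diestrus. The replication genes were highest in the same pair of libraries. Mcm2 was at 3.76, 59.6 and 4.14 FPKM in estrus, against 56.3, 18.9 and 15.6 in diestrus, and Pcna at 33.1, 247 and 29.8 against 205, 62.0 and 64.5. Uhrf1 stood at 76.2 FPKM in estrus 2, at 76.3 in diestrus 1 and at 1.68 to 9.47 in the other 4.

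No member had phases that did not overlap in the uterus, as against 7.92% of all genes, and 0 members had an unadjusted p under 0.05 in limma. The lowest p-values were those of Mcm2 (log2 difference -1.23 ± 1.02), Top2a (-1.35 ± 1.17) and Mcm3 (-1.36 ± 1.18), each with an adjusted p of 0.897 in limma, and Mki67, Ccnb1 and Pcna differed by -0.29 ± 0.86, -0.51 ± 0.91 and -0.57 ± 0.88. None of these differences was much larger than its standard error. Without estrus 2 the picture was another, with 40 of 44 members lower in estrus without overlap (all genes 25.6%), 29 at an unadjusted p under 0.05 (all genes 10.4%), a median difference of -1.55 and a lowest adjusted p of 0.187 in limma. Without estrus 3, the library with squamous markers, 0 members were lower in estrus without overlap (all genes 7.53%) and the median was 0.06. Without estrus 1 it was 0.01 and without diestrus 1 it was -0.0041, so the sign of the median rested on single libraries.

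Cyclins of G1 were high in the same uterine libraries. Ccne1, the cyclin E1 of the G1 to S transition, was at 0.30, 16.9 and 0.18 FPKM in estrus, against 16.6, 1.74 and 2.19 in diestrus, and Ccnd1, cyclin D1, at 10.1, 104 and 21.9 against 144, 22.0 and 26.1. Cdkn1a, which encodes the inhibitor p21, was at 29.4, 26.3 and 44.9 FPKM in estrus, against 18.4, 6.31 and 5.68 in diestrus, without overlap (log2 difference 1.78 ± 0.46, limma adjusted p = 0.897). Ltf was at 1117, 292 and 1043 FPKM in estrus, against 138, 308 and 7.96 in diestrus, lower in estrus 2 and diestrus 1 than in estrus 1 and estrus 3. Pgr, the progesterone receptor, was at 11.6, 68.8 and 10.3 FPKM in estrus, against 53.5, 98.7 and 32.7 in diestrus. Uterine epithelial markers summed to 1400 to 1548 FPKM in estrus and 635 to 1964 in diestrus, with the lowest sum in diestrus 3. Stromal and muscle markers summed to 2273, 803 and 539 FPKM in estrus against 1011, 803 and 2120 in diestrus. Their part in the member levels was not tested.

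**Figure D5:**
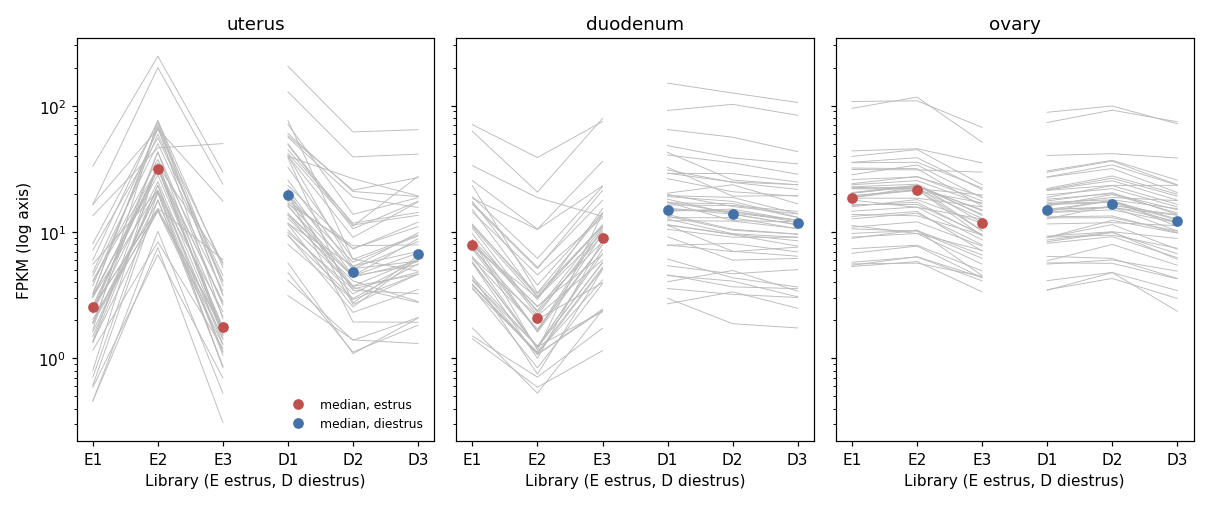
FPKM (log axis) of each of the 44 genes (grey lines, joined within a phase only to follow a gene; the numbers carry no order) in the 6 libraries of uterus, duodenum and ovary, with the median of the 44 genes in red for estrus and blue for diestrus. Uterus estrus 2 and diestrus 1 are high together (medians 31.8 and 19.5), duodenum estrus 2 is low (2.10), and ovary estrus 3 (11.8) lies under the other estrus libraries.

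In the ovary 42 of the 44 members had a higher mean in estrus, by little (all genes 53.5%). Mki67 was at 20.3, 23.2 and 14.8 FPKM in estrus, against 14.5, 17.9 and 11.1 in diestrus (log2 difference 0.40 ± 0.22, limma adjusted p = 0.846). Cenpe, at 5.45, 6.38 and 4.36 FPKM against 3.46, 4.77 and 3.44, and Cdc6, at 5.59, 5.67 and 4.46 against 4.12, 4.79 and 2.36, had the lowest p-values, with differences of 0.39 ± 0.17 and 0.42 ± 0.22. Estrus 3 was the lowest estrus library in all 3 genes and lay among the diestrus values. Top2a was at 35.4, 35.7 and 22.3 FPKM in estrus, against 27.1, 31.8 and 20.6 in diestrus, and Ccnb1 at 20.5, 23.5 and 11.9 against 17.6, 20.5 and 13.8. Mcm2 and Pcna differed by 0.11 ± 0.14 and 0.11 ± 0.22.

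No member was without overlap in the ovary (all genes 13.7%) and 0 had an unadjusted p under 0.05 in limma. Without estrus 3, the library with epithelial markers and Ltf, 35 of 44 members were higher in estrus without overlap (all genes 22.2%), 24 had an unadjusted p under 0.05 (all genes 11.2%), the median difference was 0.38 and the lowest adjusted p 0.106 in limma. Without estrus 2, the library with the highest members, the median was -0.0022. Estrus 3 also had the lowest sum of oocyte markers, 81.9 FPKM against 153 to 197 in the other 5, and the lowest sum of granulosa cell markers, 1500 FPKM against 1920 to 2895. Granulosa cells are the dividing somatic cells of the follicle, and their markers were at 1920, 2504 and 1500 FPKM in estrus against 2795, 2895 and 2249 in diestrus. The part of these cell types in the member levels was not tested.

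In the spleen, where library levels lay between 14.2 and 18.6 FPKM, no member was called. Members without overlap between phases were no more frequent than among all genes, as given below. Mki67 was at 48.4, 58.0 and 53.8 FPKM in estrus, against 38.5, 47.97 and 42.5 in diestrus, each estrus value above each diestrus value (log2 difference 0.31 ± 0.10, limma adjusted p = 0.930). Hells went the other way without overlap, with 11.9, 10.4 and 11.6 FPKM against 14.2, 13.2 and 13.98 (-0.27 ± 0.08, adjusted p = 0.930 in limma), as did Ttk, at 3.25 to 3.32 FPKM against 3.35 to 3.43. Ube2c was at 97.0, 129 and 126 FPKM in estrus, against 70.8, 125 and 76.8 in diestrus, where diestrus 2 stood with the estrus libraries. Top2a, Ccnb1, Mcm2 and Pcna differed by 0.01 ± 0.11, 0.14 ± 0.12, -0.03 ± 0.14 and 0.07 ± 0.10. Spleen estrus 2 also had pancreatic acinar markers at a summed 3921 FPKM, against 3.74 to 16.04 in the other 5, and neutrophil markers were at 430, 1390 and 423 FPKM in estrus against 176, 268 and 276 in diestrus. Their part in these differences was not tested. In all, 3 members were without overlap (all genes 8.78%). Without diestrus 2, 27 members were higher in estrus without overlap (all genes 10.9%). Erythroid precursor markers, which in the mouse spleen mark dividing red cell progenitors, summed to 207, 496 and 303 FPKM in estrus against 124, 360 and 190 in diestrus, and diestrus 2 was again the highest of its phase. Whether they account for the member levels was not tested.

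In the stomach Plk1 had the lowest p, with 27.3, 30.7 and 28.0 FPKM in estrus against 38.3, 39.2 and 33.7 in diestrus, all estrus values lower (log2 difference -0.36 ± 0.11, limma adjusted p = 0.671). Kif20a and Kif11, motors of cytokinesis and of the spindle poles, differed by -0.35 ± 0.15 and -0.26 ± 0.12, also without overlap. These 3 were the members lower without overlap (all genes 12%), and Plk1 was the one at an unadjusted p under 0.05 (all genes 6.9%). Ccnb1 was nearly level, with 12.4, 11.3 and 12.2 FPKM against 12.6, 12.3 and 11.8 (-0.03 ± 0.10), and Mki67, Top2a, Mcm2 and Pcna differed by 0.05 ± 0.16, -0.22 ± 0.15, -0.27 ± 0.20 and -0.29 ± 0.17. All 15 replication members had a lower mean in estrus, from -0.45 to -0.22 on the log2 scale, while 20 of the 26 mitotic members did. Of all genes, 47.5% had a higher mean in estrus. Without estrus 2, 25 members were lower without overlap (all genes 19.6%). Squamous epithelium markers, from the forestomach, summed to 2273, 52.4 and 3025 FPKM in estrus against 545, 189 and 0.48 in diestrus, and gastric gland markers to 70128, 143610 and 39854 in estrus and 70991 to 84497 in diestrus, so estrus 2 was also the estrus library with least squamous and most glandular signal. Its part in the member levels was not tested.

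Whether the phase difference itself differed between tissues was tested as an interaction in limma for the 10 pairs of these 5 tissues. Of 440 member tests 0 were called, as against 4 of 136465 over all genes (0.00293%), with a lowest adjusted p of 0.326. At an unadjusted p under 0.05 there were 31 members for ovary against duodenum (all genes 10.8%), 26 for spleen against duodenum (all genes 13.7%) and 15 for duodenum against stomach (all genes 11.2%). Melk led the first pair, with a difference of phase effects of 1.66 ± 0.48. So the phase difference of the members in duodenum was not shown to be particular to it.

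Genes of the same pathway outside the 44 were counted from lists of other S phase genes, other G2 and M genes, G1 cyclins and kinases, E2F factors, and inhibitors with pocket proteins. Between phases 0 of them were called in limma in any of the 5 tissues. In duodenum 19 of 24 tested G2 and M genes and 7 of 21 S phase genes were lower in estrus at an unadjusted p under 0.05 (all genes 11.2%), with medians of -1.11 and -0.72, and with Cdca3 at 21.8, 4.49 and 33.2 FPKM in estrus against 82.2, 54.3 and 46.3 in diestrus. At the same limit 3 of 7 E2F factors and 2 of 8 G1 genes (Cdk4 and Ccnd1) were lower there, and of the inhibitors Cdkn1a and Cdkn1c were higher and Cdkn2b lower. E2f2 was lower in estrus in duodenum (6.93, 2.90 and 8.31 FPKM against 17.8, 12.7 and 16.1) and in stomach (1.96, 2.84 and 2.61 against 5.19, 5.69 and 5.04), without overlap in either. Cdkn1a was the opposite in duodenum, with 163, 194 and 166 FPKM in estrus against 92.3, 115 and 124 in diestrus (log2 difference 0.66 ± 0.18, limma adjusted p = 0.368).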

How the data were processed

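RNA sequencing (BGISEQ-500) was deposited as one matrix of FPKM values that the authors made by filtering reads with SOAPnuke, aligning with Bowtie2 2.2.5 and quantifying with RSEM 1.2.8 on GRCm38.p5, per the submitters' processing notes. No source used here names the unit, which was taken as FPKM from the use of RSEM and from column sums that differ between libraries. Values were analysed as log2(FPKM + 1) with limma 3.58.1 (R 4.3.3, trended prior), keeping genes that averaged 1 FPKM or more in the libraries compared. Fold changes on this scale understate those of low genes. Adjusted p-values are Benjamini-Hochberg over all genes tested, and the limits of a call were 1 for the absolute log2 difference and 0.05 for the adjusted p. The study's DEGSeq needs counts, so limma was used instead, after a test on simulated data with 200 changed genes. Depth was approximated from steps between low values of 1062 short genes, with a read length of 50 assumed. The estimates are lower than the number of reads per sample in the study's methods. Depth limits the precision of values under about 1 FPKM. Statistics between phases are given for the 3 members with the lowest p in each tissue and always for Mki67, Top2a, Ccnb1, Mcm2 and Pcna, between tissues for the largest differences, and for the 10 genes most alike. Other genes are named for what they show and were chosen after their values were seen. The members and lists were chosen with earlier results of these data known. Alternatives were a pseudocount of 0.1 FPKM, no filter, median-of-ratios scaling, no trend, a replicate block, one fit of all 90 libraries, and leaving out each library.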

Additional observations from a re-analysis of the deposited data

How the results depend on the processing

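Over all values and settings, 2122 kept their direction and side of the limits or their size, and 46 turned direction. A further 87 moved in size, 34 became stronger and 21 weaker across the limits of a call. Counts of members without overlap between phases after leaving out a library were added after the data were seen. With a joint fit of all 90 libraries, which takes the same spread in every tissue, the members called between phases were 25 in duodenum (all genes 2.32%). There were 3 in uterus (all genes 2.46%). As said above, these calls are not read as phase differences. The median phase difference was -0.15 in brown fat and -0.041 in kidney without a filter, and 0.037 in skeletal muscle after median-of-ratios scaling. That scaling gave 2 calls for ovary minus uterus (2 also without a filter), 4 for ovary minus spleen, 0 for ovary minus duodenum, 16 for uterus minus spleen, 3 for uterus minus duodenum, 10 for uterus minus stomach and 5 for spleen minus duodenum. A pseudocount of 0.1 FPKM gave 6 for ovary minus stomach, 2 for uterus minus stomach and 1 for duodenum minus stomach. The share of all genes called with it is not given, so these counts are no result about the members. Scaling turned Mcm2 for ovary minus uterus to -0.018, Ube2c for ovary minus duodenum to -0.64 and Gins2 for spleen minus duodenum to -0.22, and the pseudocount turned Plk1 for spleen minus duodenum to 0.021. The cause was not tested.

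The level of the members as a mean over members of log2 values was 0.82 in brown fat, 0.99 in cerebrum, 1.00 in heart, 1.03 in hypothalamus, 1.17 in kidney, 0.76 in liver, 0.73 in skeletal muscle, 4.22 in spleen and 1.302 in white fat. After scaling it was 0.68 in liver, 0.44 in skeletal muscle, 3.58 in ovary and 3.87 in spleen. Of the 10 most alike genes, 4 were shared with Spearman's rho and 6 with all 90 libraries.

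Leaving out each library moved the median phase difference from -0.69 to -0.082 in brown fat, and turned its sign in liver (-0.041 to 0.069), aorta (-0.32 to 0.078), vein (-0.32 to 0.0085), kidney (-0.018 to 0.073), white fat (-0.0084 to 0.23), hypothalamus (-0.020 to 0.035), cerebrum (-0.069 to 0.0053), spleen (-0.017 to 0.16), ovary (-0.0022 to 0.38) and uterus (-1.55 to 0.057). Members called ranged from 1 to 26 for ovary minus uterus, 1 to 15 for ovary minus duodenum, 5 to 37 for uterus minus spleen, 0 to 12 for uterus minus duodenum, 1 to 17 for uterus minus stomach, 11 to 21 for spleen minus duodenum and 0 to 1 for duodenum minus stomach. Calls of a difference of phase effects ranged from 0 to 2 for uterus and spleen and 0 to 1 for spleen and duodenum. The shares of all genes called in these settings are given above only in part. These ranges therefore show only how far a count rests on single libraries. Members without overlap ranged from 0 to 35 higher in ovary, 0 to 40 lower and 0 to 1 higher in uterus. The ranges were 2 to 5 lower and 1 to 27 higher in spleen, and 3 to 25 lower and 0 to 1 higher in stomach. At the largest of these counts the share of all genes was 22.2% in ovary, 25.6% in uterus, 10.9% in spleen and 19.6% in stomach. The duodenum count lower at an unadjusted p under 0.05 in limma ranged from 3 to 40 (all genes 2.31% to 28.5%). Phase differences that turned sign were those in ovary of Ccnb1 (-0.12 to 0.35) and Pcna (-0.020 to 0.33), in uterus of Mki67 (-1.301 to 0.23) and Ccnb1 (-1.59 to 0.12), in spleen of Top2a (-0.076 to 0.14), Mcm2 (-0.13 to 0.14) and Pcna (-0.0099 to 0.17), and in stomach of Mki67 (-0.095 to 0.16) and Ccnb1 (-0.049 to 0.012). Between tissues they were Melk (-0.45 to 0.16) and Mcm2 (-0.20 to 0.61) for ovary minus uterus, Melk (-0.45 to 0.00071), Birc5 (-0.36 to 0.077) and Ube2c (-0.26 to 0.21) for ovary minus duodenum, Gins2 (-0.24 to 0.50) for uterus minus spleen, Plk1 (-0.40 to 0.16) and Gins2 (-0.021 to 0.42) for spleen minus duodenum, and Cdk1 (-0.14 to 0.055) for spleen minus stomach.

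Within a tissue, in no case did all 3 same-numbered pairs of an estrus and a diestrus library correlate above 0.1 in their deviations. Such pairs come from different mice, so this cannot show whether libraries of different tissues share a mouse. With the replicate block 0 members were called between phases, and 8 instead of 10 for uterus minus spleen.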
